A study of Mus musculus with 10 samples.

Results

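Clasp1 and the other core genes of microtubule plus-end regulation were followed in ARID2 CUT&RUN lists from mouse spermatogenic cells. The 10 genes were taken by symbol: Clasp1, Clasp2, Clip1, Clip2, Mapre1, Mapre2, Mapre3, Ckap5, Slain1 and Slain2. Of these, 6 carried at least 1 row in the lists, out of 4831 gene names listed at either age. The set was chosen by gene function and by the number of rows in these lists, in which Clasp1 had the most of any gene at both ages, so row counts are a description without a test.

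CUT&RUN releases the DNA fragments that lie next to an antibody-bound chromatin protein. ARID2 is the subunit that defines PBAF, a SWI/SNF chromatin remodeler, and BRG1 is its ATPase. Cells came from the seminiferous tubules of CD1 mice, for which the labels give no engineered allele. All mice had received a bis(dichloroacetyl)diamine, an inhibitor of retinoic acid synthesis, from postnatal day (P) 1 to P10, followed by retinoic acid at P11, which synchronizes spermatogenesis. Testes were harvested at P28 or P28.5, which is 17 or 17.5 days after retinoic acid, and the cell suspensions are described as enriched for prophase-I and metaphase spermatocytes. Each age had 2 ARID2 libraries, 2 BRG1 libraries made with different antibodies, and 1 control library without primary antibody. The list for each age names the transcription start sites (TSSs) that the authors grouped into the ARID2-enriched cluster (Cl-1), from the averaged ARID2 replicates relative to the control. A row is 1 entry for a RefSeq start site, given as a position and a gene symbol. There is no signal value, read count or strand in a row, so the depth behind a row is unknown and no spread between replicates could be computed. The lists hold no expression values either, and the labelled cell types could not be checked against marker genes.

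Microtubules grow and shrink mainly at their plus ends, and a group of proteins rides on these ends to set how long they grow and what they attach to. The EB proteins, encoded by Mapre1, Mapre2 and Mapre3, bind growing ends directly and recruit the others. CLASPs, encoded by Clasp1 and Clasp2, keep microtubules from shrinking and act at kinetochores and in the spindle. CLIPs, encoded by Clip1 and Clip2, join the ends through CAP-Gly domains. The protein of Ckap5 (ch-TOG) is a microtubule polymerase, and SLAIN proteins, encoded by Slain1 and Slain2, link it to EB proteins. All of them act in dividing cells or neurons, and spindle assembly in meiosis draws on the same machinery.

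At P28, 5 of the 10 genes were listed, and at P28.5 again 5 were. Of 21774 protein-coding genes, 16.4% were listed by symbol at P28 and 11.3% at P28.5. Counted instead by any listed position within 500 bp of a gene's 5′ ends, the shares of protein-coding genes were 16.2% and 14.3%. Over all 49598 annotated genes, 8.03% and 5.32% were listed by symbol. Because the genes were chosen with these lists known, nothing is read from the difference. Clasp1, Mapre3, Ckap5 and Slain2, all on the plus strand, were listed at both ages, against 8.28% of protein-coding genes and 14.5% of plus-strand ones. Clasp2 was listed at P28 alone, as were 8.1% of protein-coding genes, and Mapre1 at P28.5 alone, as were 3.06%. Each age had its own libraries, control and list. The lists hold no signal, so how near an unlisted start came to being listed is unknown. A gene or position in the list of a single age was thus not tested as a gain or loss of ARID2. Clip1, Clip2, Mapre2 and Slain1 were in neither list. Together the 10 genes held 61 rows at P28, 82.0% of them from Clasp1, and 59 rows at P28.5, 84.7% of them from Clasp1. Without Clasp1 there were 11 rows at P28 and 9 at P28.5. Counted as distinct positions, the same rows came to 8 at P28 and 7 at P28.5.

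**Figure D1:**
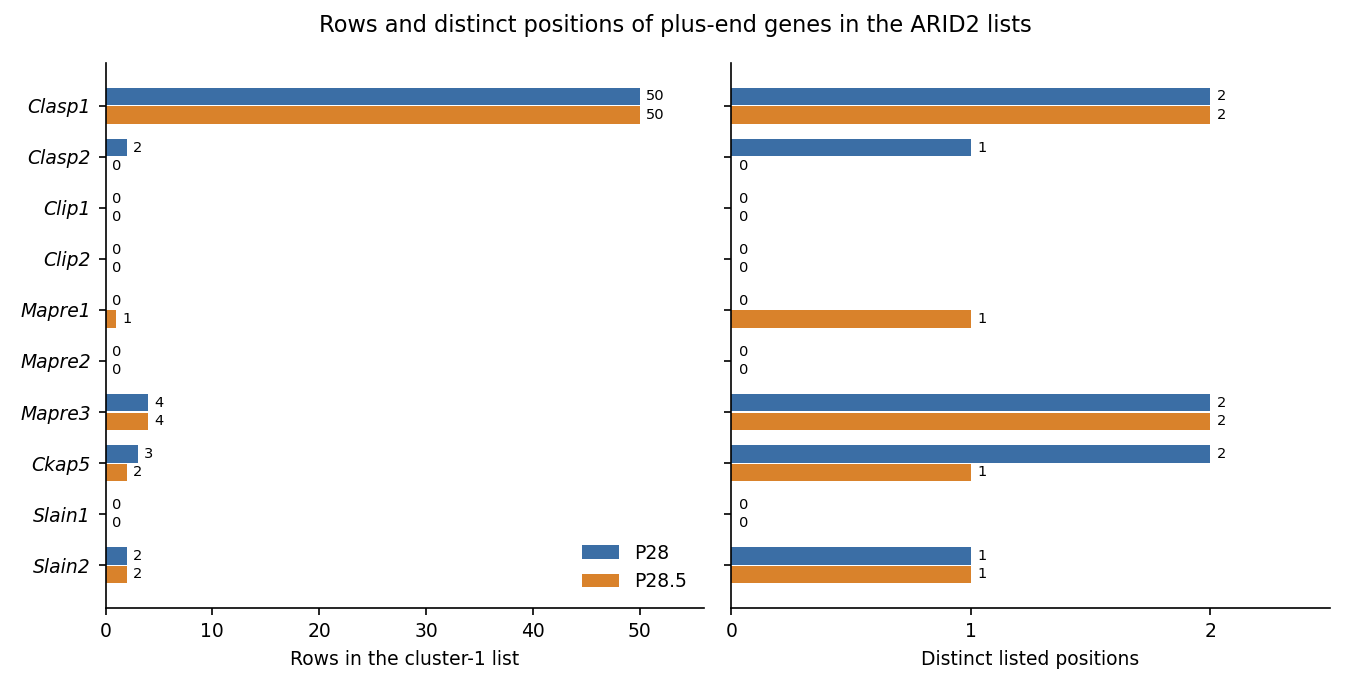
Rows in the ARID2 Cl-1 list (left, linear axis) and distinct listed positions (right) for each of the 10 genes at P28 and P28.5, with the number at the end of each bar. Clasp1 had 50 rows at each age, but no gene had more than 2 distinct positions.

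Clasp1 (GeneID 76707) spans 118389058 to 118609462 of chromosome 1 in mm10 and is read from the plus strand. It had 50 rows at P28 and 50 at P28.5. At each age 3 of these rows were at 118389058 and 47 at 118389063, 5 bp apart, so that all of them described 1 start region. Both positions are annotated 5′ ends in RefSeq for GRCm38.p6, a patch release with the chromosome sequences of mm10. RefSeq also has 50 Clasp1 transcripts, but with 20 starting at the upstream position and 30 at the other. The downstream position is in the 5′ untranslated region of all 50 of them, 30661 bp before the nearest annotated coding start. Every RefSeq transcript of Clasp1 thus began at a listed position. In the GENCODE vM21 annotation, Clasp1 has 30 transcripts at 24 5′ ends, and 13 of the 30 start within 500 bp of its rows. The number of rows did not change between the ages, and neither did the positions.

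The row count of Clasp1 equalled its number of RefSeq transcripts. The 47 rows at 118389063 were the most at any listed position at either age, where the median position had 1 row. The next gene by rows was Cdkl3, a kinase gene of the cyclin-dependent kinase-like family, with 44 rows at 3 positions at each age and 54 annotated transcripts. Zfp207, with 34 rows at P28, and Pbrm1 (38 rows) and Pcbp2 (29 rows) at P28.5 were also among the 5 genes with the most rows. Pbrm1 encodes polybromo, a subunit of PBAF itself. Ranked by distinct positions instead, Clasp1 came at 716 of 4095 gene names and at 610 of 2707. By rows per annotated transcript it came at 392 of 3985 and at 147 of 2640. Each of these is the best of the tied ranks.

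Over the 3566 listed protein-coding genes at P28, rows and annotated transcripts had a Spearman correlation of 0.50, and over the 2469 at P28.5 of 0.66. These correlations are across genes that share libraries and one annotation, and are given as a description. The median listed gene had 0.75 rows for each of its transcripts at P28, and 0.80 at the later age. Genes with many annotated transcripts usually had fewer rows than transcripts. Rows do not show which transcripts of a gene were listed, and some genes had more rows than transcripts. Pbrm1, for example, had 38 rows and 6 annotated transcripts at P28.5. Among 58 listed genes with 30 or more transcripts at P28, the median was 0.184 rows per transcript, and among 34 at P28.5 it was 0.388. Of these, 1 gene at each age had at least as many rows as transcripts, and that gene was Clasp1, itself chosen by its rows. Over all listed protein-coding genes, 44.2% at P28 and 44.5% at P28.5 had at least as many rows as transcripts. By the sum of absolute log2 ratios of rows and positions at both ages, with 1 added to each, the genes nearest to Clasp1 among the 4831 names were Cdkl3 (1.19), Fubp1 (2.46) and Vti1a (3.01). Fubp1 had 28 rows at 3 positions and Vti1a 17 rows at 2 positions, at each age.

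**Figure D2:**
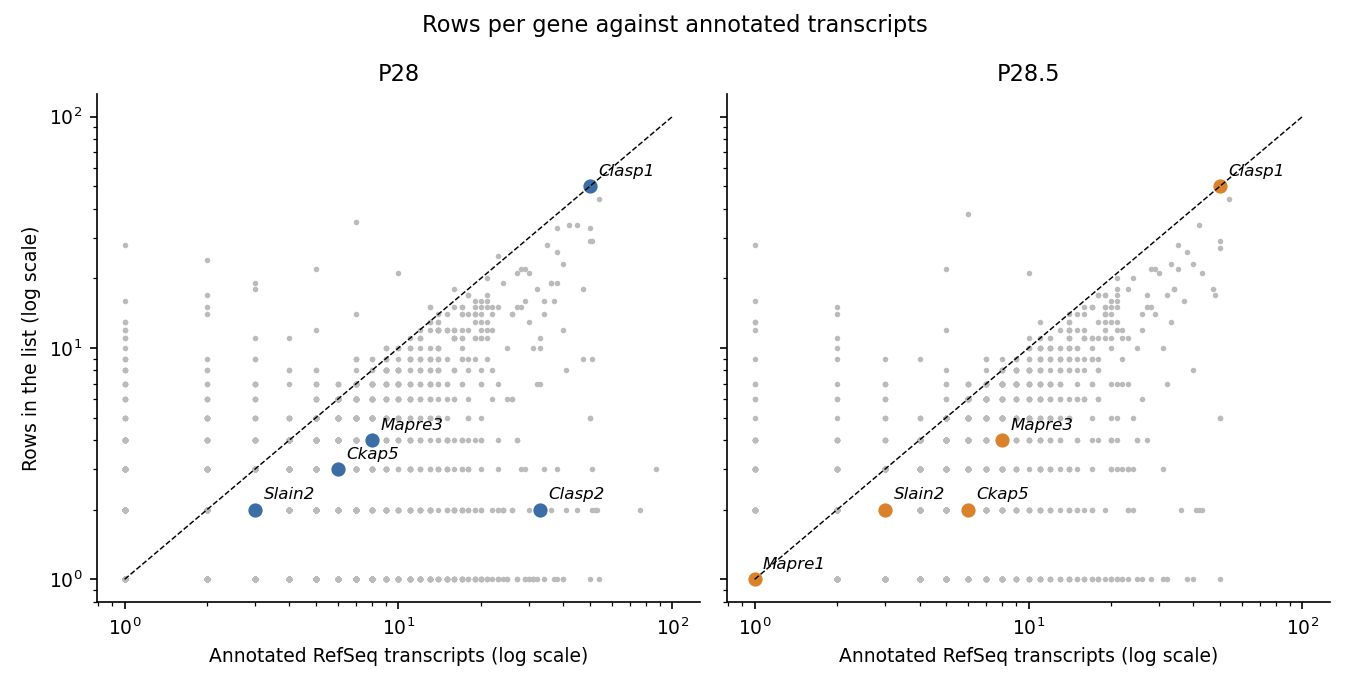
Rows in the list against annotated RefSeq transcripts for every listed protein-coding gene (grey), on log axes, at P28 (left) and P28.5 (right), with the listed plus-end genes coloured and rows equal to transcripts as a dashed line. Clasp1 lies on the line at 50 transcripts at both ages, and Clasp2 lies far below it at P28, with 2 rows for 33 transcripts.

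Clasp2 (GeneID 76499), the paralog of Clasp1, is at 113740077 to 113919697 of chromosome 9 (plus strand). It had 2 rows at P28, both at 113741473, and was missing from the P28.5 list, whose nearest position was 118348 bp from the closest of its 5′ ends. Its 33 transcripts start at 9 annotated 5′ ends spread over 72509 bp. The listed position is the start of 2 of them, and 5 transcripts in all start within 500 bp of it. The 19 transcripts that start furthest upstream begin 1396 bp before the listed position, and no row was at their start. Another 9 transcripts start 52512 bp or more downstream of the first 5′ end, in the body of the gene, and these were also without a row. The listed position is in the 5′ untranslated region of 23 Clasp2 transcripts and 208 bp from a coding start. How far the paralogs differed at P28 depended on the annotation and the distance. By RefSeq, 50 of 50 Clasp1 and 2 of 33 Clasp2 transcripts started exactly at a listed position, and 24 of the 33 Clasp2 transcripts started within 2000 bp of one. By GENCODE and a distance of 500 bp, 13 of 30 Clasp1 and 3 of 11 Clasp2 transcripts did.

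Among the EB genes, Mapre3 was listed at both ages, Mapre1 at P28.5 alone and Mapre2 at neither. Mapre3 (GeneID 100732) spans 30814606 to 30866106 of chromosome 5, plus strand. Its rows were 3 at 30814615 in either list, which is 9 bp from an annotated 5′ end, and 1 at 30814641, which equals one. Of its 8 transcripts, 4 start within 500 bp of these positions. The other 4 start 39196 bp or more downstream, close to the end of the gene, and had no row. Mapre1 (GeneID 13589), which encodes EB1, the best known plus-end protein, is at 153741287 to 153773317 of chromosome 2 (plus strand). It has 1 annotated transcript, and its only row was at the start of that transcript, at P28.5. At P28 the nearest listed position was 248497 bp away, under the name of Nol4l.

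The 250 bases upstream of a 5′ end were taken from the RefSeq promoter table of GRCm38.p6, which held windows for 8 of the 10 genes, without Clasp1 and Mapre2. They are shown for the start of Mapre1, where the lists differ between the ages, and for a listed and an unlisted annotated 5′ end of Mapre3. The Mapre1 window is chr2:153741037-153741286, and the Mapre3 windows are chr5:30814391-30814605, cut to 215 bases where a predicted exon begins, and chr5:30861557-30861806, all on the plus strand. CpG dinucleotides are in capitals.
Mapre1, listed at P28.5: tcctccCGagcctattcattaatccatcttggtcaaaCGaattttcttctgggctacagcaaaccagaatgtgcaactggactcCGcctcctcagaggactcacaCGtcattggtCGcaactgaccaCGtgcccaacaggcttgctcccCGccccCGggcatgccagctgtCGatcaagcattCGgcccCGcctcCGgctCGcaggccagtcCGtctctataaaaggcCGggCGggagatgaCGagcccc
Mapre3, start listed at both ages: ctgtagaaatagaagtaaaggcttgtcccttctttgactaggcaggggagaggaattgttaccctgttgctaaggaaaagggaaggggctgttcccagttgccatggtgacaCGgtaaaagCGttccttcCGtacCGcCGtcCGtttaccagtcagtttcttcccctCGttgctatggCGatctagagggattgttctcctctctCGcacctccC
Mapre3, downstream start listed at neither age: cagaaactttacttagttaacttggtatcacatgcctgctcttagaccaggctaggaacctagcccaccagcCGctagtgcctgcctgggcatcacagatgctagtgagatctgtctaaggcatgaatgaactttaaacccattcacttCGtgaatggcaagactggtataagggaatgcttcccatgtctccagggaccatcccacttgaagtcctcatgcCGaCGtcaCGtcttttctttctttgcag

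The Mapre1 window held 17 CpG, more than 76.5% of the 32851 windows in the table, whose median was 6. The 215 printed bases at the listed Mapre3 start held 9 CpG and its full 250 bases 12, and the window at its downstream start held 5. Motifs were searched on both strands of all 250 bases: GGGCGG (the GC box, in 32.7% of all windows), CCAAT (33.8%), TATAAA (the TATA box, 12.4%), CAGTTG (a MYB motif, 11.1%), CCGGAAG (an ETS motif, 6.91%), TGACGT (the core of the cAMP response element, 6.47%) and the palindromic NRF1 motif (0.782%). The window of Mapre1 held TATAAA 32 bp upstream of the 5′ end. No other listed start of these genes with a window held TATAAA. The Mapre1 window also held GGGCGG 21 and 102 bp upstream, CCAAT 141 bp, TGACGT 146 bp, and CAGTTG 133 and 177 bp upstream. The listed Mapre3 start had CAGTTG 155 bp upstream, and its downstream start had TGACGT 26 bp upstream. That downstream 5′ end, 30861807, is just before the coding start at 30861814, which Mapre3 transcripts that start further upstream share. Its window lies inside the gene without an exon, so it may be intron and not promoter, which was not tested. None of the windows held the NRF1 motif. These matches describe letters in a window and say nothing of what binds there.

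Ckap5 (GeneID 75786) is at 91526747 to 91620679 of chromosome 2 (plus strand). At P28 it had 2 rows at its first annotated 5′ end, 91526747, and 1 row at 91526978, 24 bp from another 5′ end. At P28.5 the 2 rows at 91526747 were listed again and the row at 91526978 was not. Of these positions, 231 bp apart, the upstream one was thus in both lists and the other in the P28 list. Of its 6 transcripts, 4 start within 500 bp of the listed positions, and the other 2 start 11041 and 19575 bp further into the gene, without a row. Over all 1803 protein-coding genes listed at both ages, 82.6% had the same set of positions at both, and of the 4 plus-end genes at both ages, 3 did.

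The SLAIN genes, whose proteins bring the Ckap5 product to EB proteins, were divided. Slain2 (GeneID 75991), at 72914362 to 72978841 of chromosome 5 (plus strand), had 2 rows at 72914362 at each age, the start of 2 of its 3 transcripts and 263 bp from a coding start. Its other transcript starts 24231 bp downstream and had no row. Slain1 (GeneID 105439), at 103650228 to 103704907 of chromosome 14 (plus strand), was in neither list. Its 2 transcripts share 1 start, and the nearest listed position was a Mycbp2 row, at a distance of 246919 bp at P28 and of 303286 bp at P28.5. The windows before these paralogous starts are shown, chr5:72914112-72914361 for Slain2 and chr14:103649978-103650227 for Slain1, on the plus strand with CpG in capitals.
Slain2, listed at both ages: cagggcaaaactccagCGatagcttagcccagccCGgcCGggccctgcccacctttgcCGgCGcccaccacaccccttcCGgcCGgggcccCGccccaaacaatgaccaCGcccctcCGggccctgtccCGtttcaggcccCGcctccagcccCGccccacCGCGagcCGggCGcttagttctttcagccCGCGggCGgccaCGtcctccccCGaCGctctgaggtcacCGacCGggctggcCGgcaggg
Slain1, listed at neither age: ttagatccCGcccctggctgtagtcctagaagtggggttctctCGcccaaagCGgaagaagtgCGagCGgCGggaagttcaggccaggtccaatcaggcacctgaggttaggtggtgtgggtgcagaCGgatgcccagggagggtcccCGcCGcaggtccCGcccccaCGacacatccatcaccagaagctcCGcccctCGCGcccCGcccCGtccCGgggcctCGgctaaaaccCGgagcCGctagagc

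The Slain2 window held 26 CpG and the Slain1 window 20, more than 90.4% and 82.1% of all windows. GGGCGG was present in both, 3 times for Slain2 and 4 times for Slain1. Slain2 alone of the pair held CCGGAAG, and Slain1 alone held CCAAT. The listed and the unlisted paralog were thus alike in CpG and GC boxes.

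The CLIP genes were in neither list. Clip1 (GeneID 56430) is at 123577794 to 123684606 of chromosome 5 (minus strand), and Clip2 (GeneID 269713) on the same strand and chromosome, from 134489383 to 134553767. Clip1 has 41 annotated transcripts at 13 5′ ends, and the nearest listed position was 65084 bp away at both ages, under the name of Kntc1. For Clip2, with 4 transcripts, it was 28923 bp away, under the name of Rfc2. The lists carry no strand, and they name minus-strand genes less often, with 7.38% of minus-strand and 25.4% of plus-strand protein-coding genes at P28, and 2.78% and 19.9% at P28.5. Clip1 and Clip2 are the only minus-strand genes of the 10, so their absence and their strand cannot be told apart. No listed position was near the 3′ end of either gene, the nearest being 171896 bp from that of Clip1 and 93307 bp from that of Clip2. Of the 8 plus-strand genes, 5 were listed at each age.

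The remaining EB gene, Mapre2 (GeneID 212307), is a plus-strand gene of chromosome 18, from 23752333 to 23893861, with 5 annotated 5′ ends. The nearest listed position was 150554 bp from the closest of them at both ages, under the name of Zfp397.

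**Figure D3:**
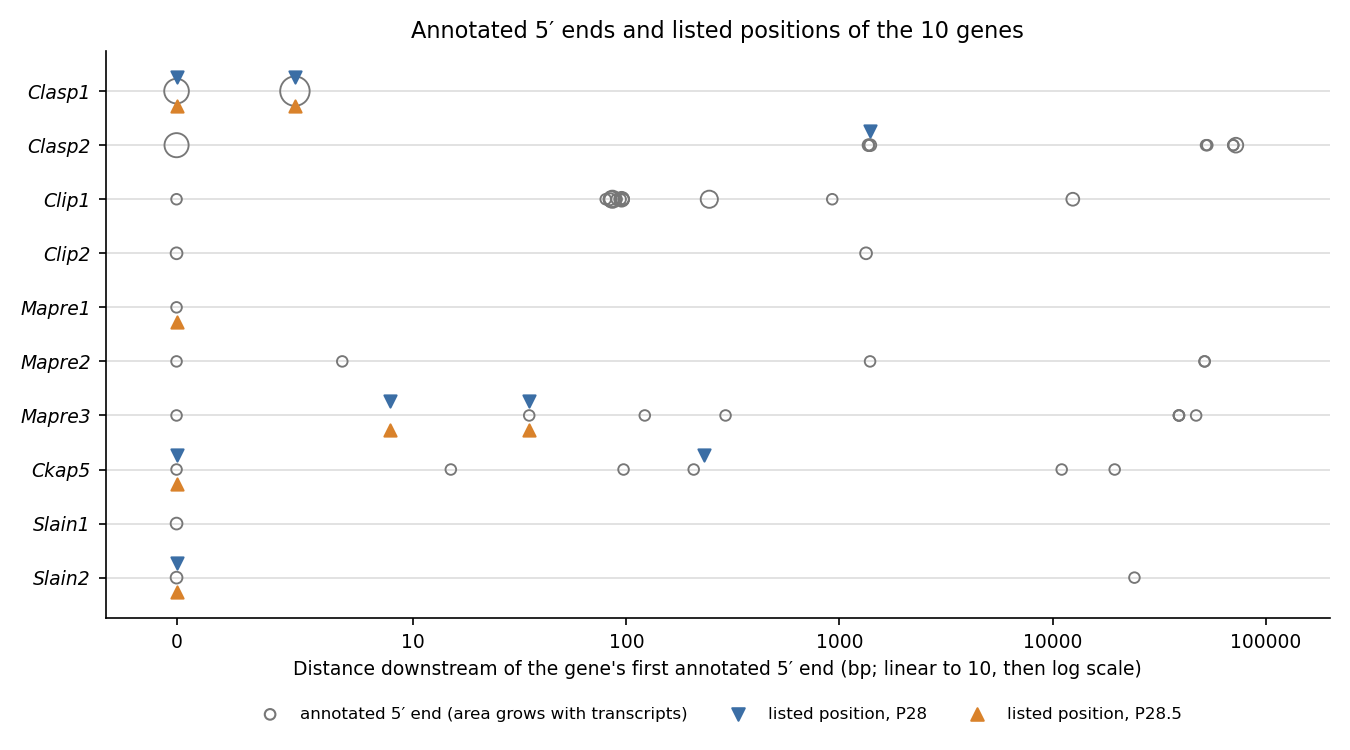
Annotated 5′ ends (open circles, with an area that grows with the number of transcripts) and listed positions at P28 (downward triangles) and P28.5 (upward triangles) for the 10 genes, by distance downstream of the first annotated 5′ end in bp, linear to 10 bp and logarithmic beyond. Listed positions were within 231 bp of the first 5′ end, except that of Clasp2 at 1396 bp.

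No row of another gene was within 2000 bp of a 5′ end of any of the 10 genes. Neighbouring 5′ ends on the other strand were 3: the lncRNA gene Gm15972, 28 bp from Mapre2, the lncRNA gene Gm46907, 23 bp from Mapre3, and the pseudogene Gm13770, 263 bp from Ckap5. None of these had a row at either age.

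What the listed starts shared, apart from the rule, was CpG content. The observed over expected CpG ratio was computed for the 500 bp before and after each of the 49 annotated 5′ ends of the 10 genes. In the 6 listed genes, 15 ends were within 500 bp of a listed position, with ratios from 0.637 to 1.002. The other 13 ends of these genes had ratios from 0.124 to 0.346, without overlap between the ranges. Many ends of a gene lie close together, as those of Clasp1 do at 5 bp apart, and share most of the bases counted. Ends are thus not separate observations. In Clasp2 the 3 ends near the listed position had ratios of 0.986 to 1.002, and the other 6 had 0.179 to 0.316, among them the furthest upstream start, at 0.179. The Mapre3 ends near listed positions had 0.637 to 0.716, against 0.171 to 0.191 at its downstream ends. For Ckap5 the ranges were 0.788 to 0.851 and 0.124 to 0.346. For Slain2, the listed start had 0.829 and the other 0.124. This was common in the lists: of 1282 listed protein-coding genes with ends of both kinds, every end near a listed position had a higher ratio than every other end in 78.2%. All 4 of the plus-end genes with both kinds of end did.

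High CpG content was not confined to listed starts. Among the 4 unlisted genes the 21 annotated 5′ ends had ratios from 0.157 to 0.882. Slain1 had 0.754, above the 0.637 to 0.716 of the listed Mapre3 ends, and the Clip1 end with the most CpG had 0.882, above both ends of Clasp1 (0.857 and 0.858). The ends of Mapre2 had 0.563 to 0.668. Taken by the outermost 5′ end of each gene, the median ratio of the 10 was 0.758, against 0.516 over protein-coding genes. In the highest CpG quintile, the P28 list named 45.2% of plus-strand genes and the P28.5 list 45.9%. Of the 4 plus-strand members in that quintile, Clasp1, Ckap5 and Slain2 were listed at both ages and Mapre1 at P28.5. In the fourth quintile, where the shares were 38.5% and 32.5%, Mapre3 was listed and Slain1 was not. Mapre2 was in the quintile below, with shares of 21.2% and 12.1%. Clasp2, by its upstream start, was in the next one down, with shares of 13.3% and 5.23%.

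**Figure D4:**
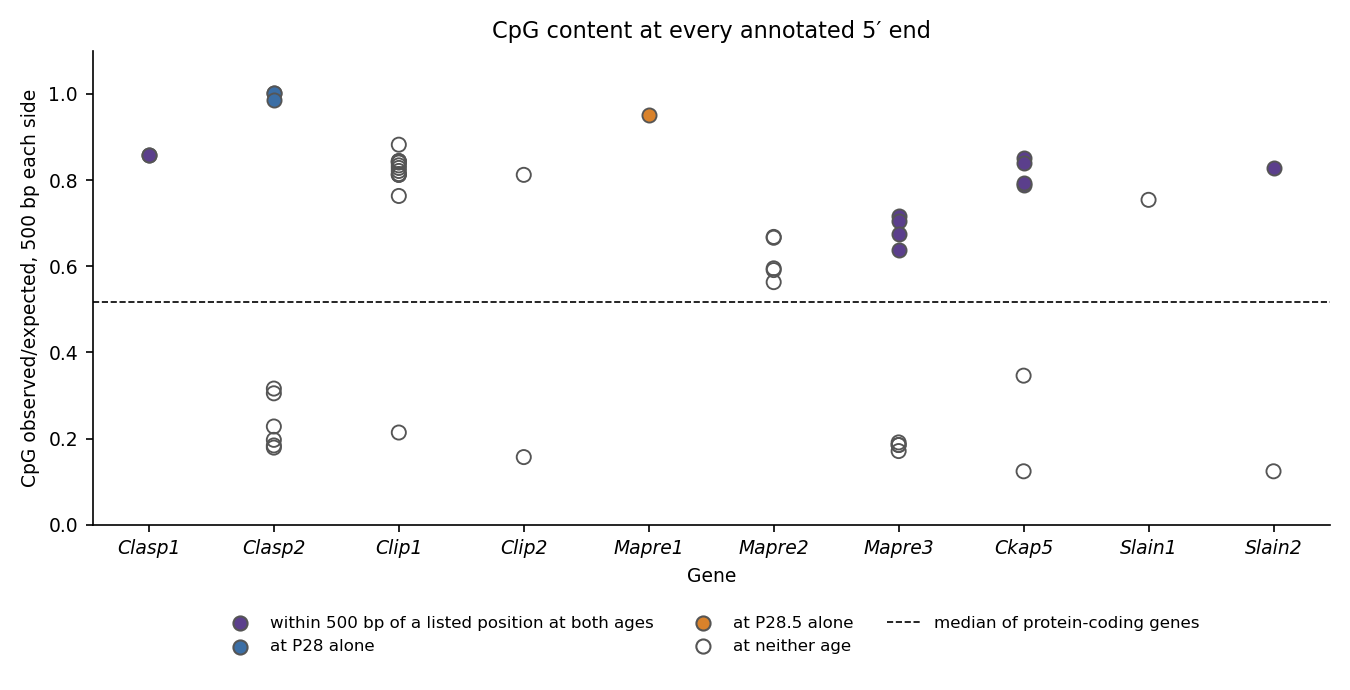
Observed over expected CpG ratio in the 500 bp before and after every annotated 5′ end of the 10 genes, filled where a position less than 500 bp away was listed at both ages or at one of them, and open where there was none, with the median of protein-coding genes (0.516) as a dashed line. Filled points sit between 0.637 and 1.002, while open points sit between 0.124 and 0.882.

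Other genes of microtubule end regulation were counted from 5 lists with 58 genes in all. At P28, 15 of the 58 were listed (25.9%), and at P28.5 11 were (19.0%), with 7 in both lists, 8 in the earlier one only and 4 in the later one only. Over protein-coding genes the shares were 16.4% at P28, 11.3% at P28.5, 8.28% in both lists, 8.1% in the earlier one only and 3.06% in the later one only. Of 29 plus-strand genes among them, 12 were in the P28 list and 10 in the later one, and of 29 minus-strand genes, 3 and 1, beside 25.4% and 19.9% of all plus-strand and 7.38% and 2.78% of all minus-strand protein-coding genes. Taking any listed position less than 2000 bp from a 5′ end, whatever the name of its row, 15 were listed at each age, against 17.3% and 14.8% of protein-coding genes.

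Of 8 CAP-Gly proteins, the family of the CLIPs, the P28 list named 2 and the P28.5 list 1. Cyld, a deubiquitinase with CAP-Gly domains, had 15 rows at 8 positions at each age. Clip4 had 2 rows at P28, but no listed position was closer than 3513 bp to any of its 5′ ends. Dctn1, the dynactin subunit that binds EB proteins, had no row. Of 27 partners of EB proteins and CLASPs, 6 were in the P28 list and 4 in the P28.5 list. Nav2, a neuron navigator gene, had 11 rows at P28 and 13 at P28.5. Stim1, a calcium sensor of the endoplasmic reticulum that binds EB1, had 5 rows at each age.

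Several partners were listed at 1 age, which was not tested as a change in ARID2. Knstrn and Spag5, whose products form the astrin complex at kinetochores, were listed at different ages: Knstrn had 4 rows at P28 and none at P28.5, and Spag5 had none at P28 and 6 at P28.5. Apc, a tumour suppressor that binds EB1, had 3 rows at P28.5, and Nde1, a dynein regulator, 4 rows at P28. Psrc1 had 5 rows and Pde4dip 1 row at P28, where the nearest listed positions were 7010 bp and 37533 bp from any of their 5′ ends. Macf1, Dst and Pafah1b1 had no row. A P28 position listed under another name was, however, 405 bp from a 5′ end of Macf1.

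Of 3 TACC genes, Tacc3, whose product works with that of Ckap5 on spindle microtubules, had 7 rows at each age, and Tacc1 and Tacc2 had none. Of 3 CAMSAP genes, which act at microtubule minus ends, Camsap1 and Camsap3 had 1 row each at P28, and none was listed at P28.5. The Camsap3 row was 25 bp from a 5′ end, while no listed position was closer than 13396 bp to one of Camsap1. Of 17 destabilisers and severing enzymes, the P28 list named 4 and the P28.5 list 5. The katanin genes Katna1 and Katnal1 were listed at both ages, each with 1 row. Kif18a, a kinesin that shortens microtubules and aligns chromosomes, had 2 rows at P28.5 alone, and Stmn1, a tubulin-binding destabiliser, 1 row at P28.5 alone. Stmn2, its neuronal relative, had 2 rows at P28 alone.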

How the data were processed

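ARID2 CUT&RUN was performed by the authors on spermatogenic cells from synchronized testes at P28 and P28.5. Reads were trimmed with TrimGalore, aligned to mm10 with Bowtie2 and converted with SAMtools and deepTools to coverage without blocklisted regions or duplicates. Coverage was scaled by csaw factors, divided by the control without primary antibody as a log2 ratio and averaged over replicates. TSSs of RefSeq genes were then clustered by k-means. The deposited lists hold the TSSs of Cl-1 as positions and symbols, with no counts, signal or depth. The BRG1 libraries and signal tracks were not analysed here.

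Rows were counted by symbol and compared with RefSeq transcripts of GRCm38.p6. Listed positions were read as 1-based, and not all of them equal a 5′ end of that annotation. A 5′ end was called near a listed position within 500 bp, or 2000 bp where stated. CpG ratios used 500 bp on either side of a 5′ end. The nearest-distance code was run on simulated positions and returned no distance above the planted one, which does not test for false matches. Computations ran in Python 3.11.15 (scipy 1.17.1, numpy 2.4.6) and figures in matplotlib 3.10.9. No group test was run, since each age is 1 list from averaged libraries.

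The 10 genes and the partner lists were chosen with earlier results of these data known. Named genes were the 10, the 5 genes with the most rows at each age, the 3 most like Clasp1, genes with rows within 2000 bp of a 5′ end of the 10, and partner genes that were listed. Neighbours with no row (Gm15972, Gm46907 and Gm13770), partner genes without a row (Dctn1, Macf1, Dst, Pafah1b1, Tacc1 and Tacc2), genes whose rows were nearest to an unlisted gene (Nol4l, Zfp397, Mycbp2, Kntc1 and Rfc2) and the motifs searched were chosen after the values were seen. Some genes that this rule names are not reported here. Alternatives were the way a gene was counted as listed, the unit counted, the background genes and the CpG window.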

Additional observations from a re-analysis of the deposited data

How the results depend on the processing

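The numbers of the 10 genes listed at P28 (5), at P28.5 (5) and at both ages (4) were the same when a gene was counted by a listed position within 2000 bp or within 500 bp of a 5′ end, by its own rows within 2000 bp of its own 5′ end, or by synonym. The median CpG ratio was 0.758, and 0.720 over 250 bp upstream to 50 bp downstream.

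Row counts depended on the unit. The 61 rows at P28 were 8 distinct positions or 6 start-site groups joined at 100 bp, and the 59 rows at P28.5 were 7 positions or 5 groups. The 50 Clasp1 rows at each age were 2 distinct positions and 1 start-site group, joined at 100 bp or at 500 bp. GENCODE vM21, an annotation tried after the data were seen, has 30 Clasp1 transcripts at 24 5′ ends, of which 13 transcripts started within 500 bp of its rows at each age. The rank of Clasp1 by rows was 1 at both ages. By distinct positions it was 716 at P28 and 610 at P28.5, by start-site groups 687 and 518, and by rows per annotated transcript 392 and 147, each the best of the tied ranks. The 1 start-site group of Clasp1 equalled the median over gene names at both ages. These units count rows, starts, regions or rows per transcript, so the difference follows from what each counts.

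The background was 16.4% of protein-coding genes at P28 and 11.3% at P28.5. It was 8.03% and 5.32% over all annotated genes, 25.4% and 19.9% over plus-strand genes, and 17.3% and 14.8% by a position within 2000 bp of a 5′ end.

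Leaving out a replicate was not run: each age is a single list, built on the average of both libraries. No paired analysis was possible because the lists hold no values for single libraries.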
